A study of Mus musculus with 12 samples.

Results

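The genes described here are 7 transcription factor genes known for their part in the making and maturation of astrocytes, out of 18903 genes with counts in this RNA-seq experiment. They were chosen by name, with earlier results of these data known, and all 7 passed the filter on low counts. They are the complete nuclear factor I (NFI) family, *Nfia*, *Nfib*, *Nfic* and *Nfix*, together with *Zbtb20*, *Stat3* and *Rorb*. Primary astrocytes were grown from mouse brain tissue taken at P1, P6 or P8 (postnatal days 1, 6 and 8), with 2 libraries for each of the 2 genotype labels at each time point and 12 libraries in all. The label cKO stands for mice with hGFAP-cre and both *Rack7* alleles floxed (hGFAP-cre::*Rack7* fl/fl), and the label WT for mice with the same Cre and no floxed allele (hGFAP-cre::*Rack7* +/+), so that both labels share the Cre transgene. The human GFAP promoter drives this Cre in progenitors of the pallium from mid-gestation, and cells of the cultured tissue that do not come from these progenitors keep the gene. Meninges were stripped off and flasks were shaken to free them of microglia and oligodendrocytes, and the number and sex of the animals in a library are not known from the sources used here.

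NFI proteins bind DNA as dimers at a palindrome built from the core TTGGC. In the embryonic forebrain they take part in the switch of radial glia from making neurons to making glia, and *Nfia* and *Nfib* are the members best known for starting astrocyte genes such as *Gfap*. STAT3 is the transcription factor at the end of the gp130-JAK pathway, by which LIF, CNTF and related cytokines turn progenitors into astrocytes, and it is also known for its part in reactive astrocytes. ZBTB20, a zinc finger repressor, is known for promoting astrocyte formation in the cortex and for its part in the hippocampus. RORB, an orphan nuclear receptor that binds the core AGGTCA, is better known from neurons of the cortex, and it has been placed among the regulators of astrocyte maturation.

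Libraries held 54413504 to 89183250 counts. *Zmynd8*, which encodes RACK7, was higher in the libraries labelled cKO, with 213 and 216 CPM (counts scaled to library size with TMM factors) where the label WT had 136 and 136 CPM at P1. The P6 libraries had 242 and 231 CPM in the label cKO and 114 and 116 CPM in the label WT, and the P8 libraries 160 and 171 CPM and 99.98 and 104 CPM. In this order of time points the log2 fold change of *Zmynd8* was 0.65, 1.04 and 0.70 (SE 0.0468, 0.0471 and 0.0468, adjusted p = 3.16e-05, 4.97e-07 and 3.78e-06). The deletion removes a pair of exons and the count covers the whole gene, so this count does not check the deletion, and libraries are named by their labels throughout. All 8 astrocyte markers had counts in every group. Their summed level lay at 1990 to 2130 CPM at P1 and at 1290 to 1600 CPM at P6, and at P8 it was 1500 to 1880 CPM for the label WT and 640 to 653 CPM for the label cKO. The 9 fibroblast and meningeal markers in the file summed to 365 to 379 CPM for the label WT and 2410 to 2450 CPM for the label cKO at P1, to 6610 to 6670 and 2410 to 2590 CPM at P6, and to 26100 to 26200 and 8090 to 8340 CPM at P8. Microglia markers summed to 2110 to 4480 CPM over all libraries, highest at P8 in the label cKO. The 5 neural stem or progenitor markers summed to 1070 to 1090 CPM for the label WT and 1200 to 1220 CPM for the label cKO at P1. They summed to 938 to 1000 and 2180 to 2210 CPM at P6, and to 180 to 190 and 585 to 591 CPM at P8. In bulk RNA, fewer cells of a type and less RNA per cell cannot be told apart, and the part of these other cell types in the values below was not tested.

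**Figure D1:**
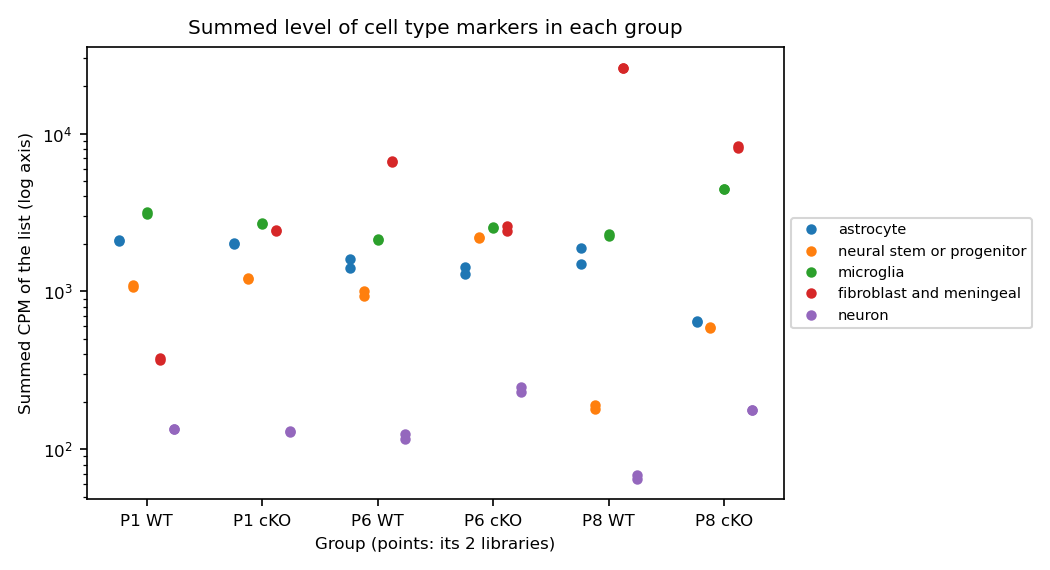
Summed CPM of 5 lists of cell type markers (log axis) in the 6 groups, with 1 point for each of the 2 libraries of a group. Fibroblast and meningeal markers are lower in the label WT than in the label cKO at P1 and higher in it at P6 and P8, and astrocyte markers are lowest in the label cKO at P8.

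On GRCm38 (GENCODE vM21), *Nfia* (ENSMUSG00000028565) lies on the plus strand at chr4:97772734-98118874 and *Nfib* (ENSMUSG00000008575) on the minus strand at chr4:82290173-82705750. *Nfic* (ENSMUSG00000055053) is at chr10:81396186-81455635 and *Nfix* (ENSMUSG00000001911) at chr8:84699876-84800344, both on the minus strand. *Zbtb20* (ENSMUSG00000022708) takes up chr16:42875881-43642602 on the plus strand, the longest span of the 7 genes at 766.7 kb. *Stat3* (ENSMUSG00000004040) at chr11:100885098-100939540 and *Rorb* (ENSMUSG00000036192) at chr19:18930605-19111196 are on the minus strand. Exons of other counted genes cover 1.86% of the exonic bases of *Nfix* (G430095P16Rik, 137 bases), 0.756% of those of *Stat3* (*Stat5a*, 72 bases) and 0.0367% of those of *Nfia* (E130114P18Rik, 4 bases), always on the opposite strand. Since the sources used here do not give the strand setting of the counting, reads in these stretches cannot be assigned to either gene with certainty.

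RefSeq promoter windows were at hand for 6 of the 7 genes, 10 windows in all, and *Nfib* had none. Each window is the 250 bases before a transcription start on GRCm38.p6. The windows of 4 genes that hold a motif of the factors described here are shown, so that the motif can be read beside the levels of the factor. Sequences run 5′ to 3′ on the strand of the gene, and capitals mark the matches, on either strand, to the NFI core TTGGC, the STAT motif TTCNNNGAA or the ROR core AGGTCA. The *Rorb* window is chr19:19111197-19111446 (minus strand), the *Stat3* window chr11:100939541-100939790 (minus), the *Nfic* window chr10:81427174-81427423 (minus) and the *Nfix* window chr8:84773411-84773660 (minus).
Rorb: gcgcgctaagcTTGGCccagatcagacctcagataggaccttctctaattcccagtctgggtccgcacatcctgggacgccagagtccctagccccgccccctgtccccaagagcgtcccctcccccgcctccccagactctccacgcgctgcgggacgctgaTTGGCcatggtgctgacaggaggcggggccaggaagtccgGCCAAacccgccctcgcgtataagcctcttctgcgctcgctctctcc
Stat3: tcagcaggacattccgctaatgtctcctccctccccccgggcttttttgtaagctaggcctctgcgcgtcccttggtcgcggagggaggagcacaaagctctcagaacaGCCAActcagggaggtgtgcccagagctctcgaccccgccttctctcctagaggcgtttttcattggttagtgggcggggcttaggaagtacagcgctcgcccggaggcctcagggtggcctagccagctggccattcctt
Nfic: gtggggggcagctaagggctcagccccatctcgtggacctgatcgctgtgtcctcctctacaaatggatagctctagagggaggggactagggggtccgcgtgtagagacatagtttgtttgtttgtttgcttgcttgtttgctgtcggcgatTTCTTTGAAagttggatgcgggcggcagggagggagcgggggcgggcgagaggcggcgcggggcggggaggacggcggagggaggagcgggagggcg
Nfix: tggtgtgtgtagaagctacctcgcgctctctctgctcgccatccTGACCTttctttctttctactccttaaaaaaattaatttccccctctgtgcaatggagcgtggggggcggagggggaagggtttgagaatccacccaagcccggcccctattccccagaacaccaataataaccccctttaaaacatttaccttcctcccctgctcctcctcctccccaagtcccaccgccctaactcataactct
The *Rorb* window shown holds 3 NFI cores, the highest count of the 10 windows, and 2.68% of the 32851 windows in the table hold at least as many. The other *Rorb* window, chr19:19001118-19001367, also lies at a GENCODE start and holds 0. The *Stat3* window holds 1. Among all windows 41.5% hold an NFI core and 0.0365% the full NFI palindrome, whose core matches are part of the first count, against 4 and 0 of the 10 windows of these genes. The STAT motif of the *Nfic* window occurs in 7.02% of all windows and in 2 of the 10, and the ROR core of the *Nfix* window in 14% of all windows and in 2 of the 10. The window used for *Nfia*, at chr4:97581693-97581942, lies 190791 bases from the nearest GENCODE start and, like that of *Zbtb20* at chr16:43247034-43247283, holds none of these letters. A match is a description of the letters only.

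Per exonic length, *Nfix* was the most abundant of the 7 genes, with a mean level of 46.7 RPKM over the 12 libraries, above *Nfic* at 27.9 RPKM in all 12. *Stat3* followed at 23.4 RPKM, *Zbtb20* at 16.1, *Nfib* at 13.6 and *Nfia* at 6.04 RPKM. *Rorb* was the lowest at 0.678 RPKM, in the 17.3 percentile of 17902 tested genes with a known length, while *Nfix* was in the 94.6 percentile. *Nfib* and *Nfia*, and *Nfia* and *Rorb*, kept their order in every library. *Nfic* was above *Stat3* in 11 libraries, *Stat3* above *Zbtb20* in 10 and *Zbtb20* above *Nfib* in 8. With the length of the longest coding transcript in place of all exons, *Stat3* (36.8 RPKM) came before *Nfic* (29.7 RPKM) and *Nfib* (22.3 RPKM) before *Zbtb20* (18.4 RPKM). Across libraries *Stat3* varied least, with 1.37 times between its lowest and highest CPM, and *Rorb* (4.05 times) and *Zbtb20* (3.18 times) varied most.

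**Figure D2:**
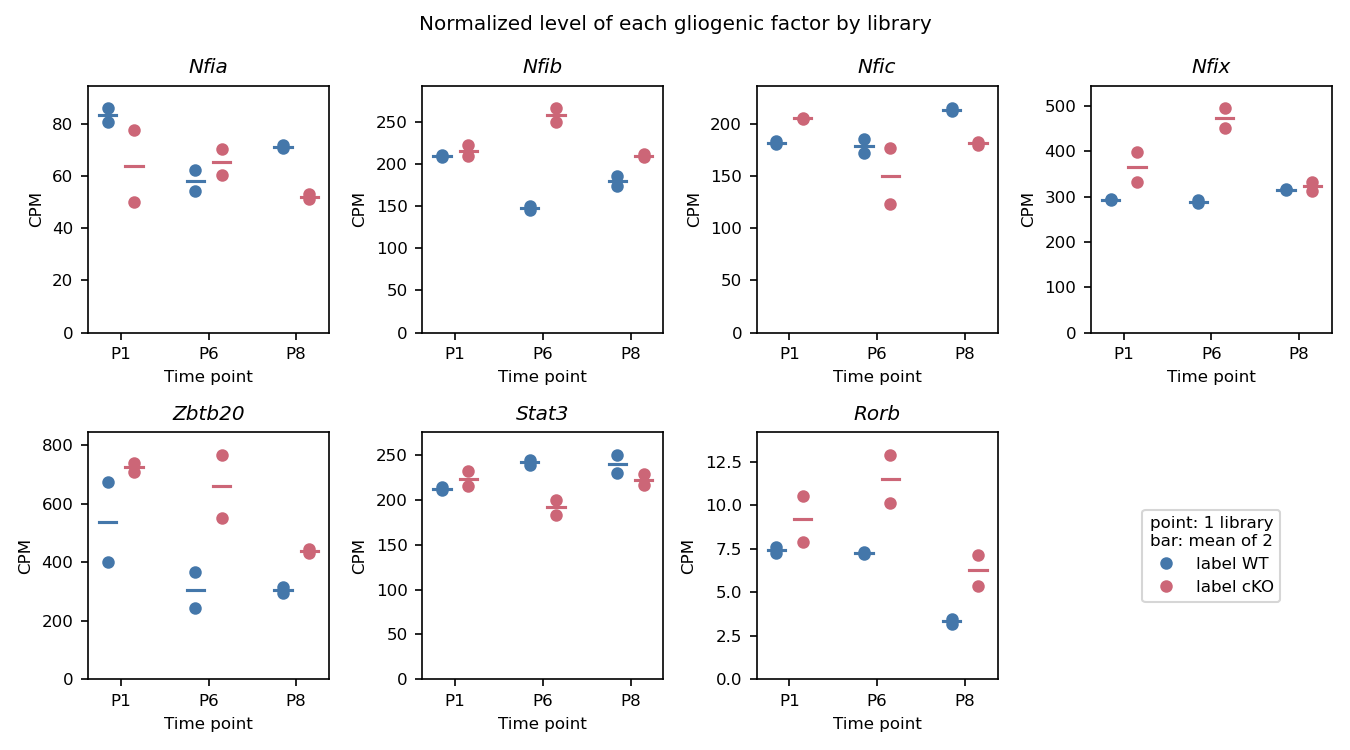
CPM after TMM scaling of each of the 7 genes by time point, with 1 point per library, the mean of 2 as a bar and the label WT in blue and cKO in red. At P6 the libraries labelled cKO lie above those labelled WT for *Nfib*, *Nfix*, *Zbtb20* and *Rorb* and below them for *Stat3*.

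The comparison of the labels at each time point asks how loss of *Rack7* bears on the astrocyte programme. At P6, *Nfib*, *Nfix*, *Zbtb20* and *Rorb* were higher and *Stat3* was lower in the libraries labelled cKO. That is 5 of the 7 genes past an adjusted p of 0.05, in a comparison in which 25.7% of 17938 tested genes were called (13.2% higher and 12.5% lower). At P1 only *Nfix* was called, higher, against 9.48% of all genes (6.54% higher), and at P8 *Nfib* and *Rorb* were called, both higher, against 34.4% (19.6% higher). The 7 genes had a median log2 fold change of 0.173 (P1), 0.666 (P6) and 0.0349 (P8), where that of all tested genes was 0, 0 and 0.012. At P6 the groups did not overlap for 5 of the 7 genes, as for 59.0% of all tested genes, and at P1 and P8 for 6 of them, as for 51.2% and 70.8%.

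*Nfib* was the gene with the most precise difference. Its P6 libraries stood at 145.5 and 151 CPM for the label WT and at 249.8 and 266 CPM for the label cKO. Both libraries labelled cKO lay far above both labelled WT, 1.74-fold higher (log2 fold change 0.80, SE 0.0507, adjusted p = 4.28e-06). At P1 the values of *Nfib* were 211 and 208 CPM against 223 and 209.9 CPM, which overlap (log2 fold change 0.05, SE 0.0503, adjusted p = 0.693, 95% interval -0.0683 to 0.159). At P8 they were 174.5 and 185.5 CPM against 212 and 208 CPM. These groups did not overlap, and *Nfib* was 1.17-fold higher in the label cKO (log2 fold change 0.22, SE 0.0503, adjusted p = 0.00735), a call that was lost without the first P8 library labelled WT (adjusted p = 0.0627). The genotype effect on *Nfib* grew from P1 to P6 by 0.76 on the log2 scale (SE 0.0713, adjusted p = 0.000105) and dropped by 0.58 from P6 to P8 (SE 0.0712, adjusted p = 0.000426).

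*Nfix*, the NFI gene linked to the later steps of stem cell and glial differentiation, had P6 levels of 292 and 285 CPM in the label WT and 495 and 451.5 CPM in the label cKO. The P6 libraries labelled cKO held the highest *Nfix* levels of all 12, and the difference was 1.64-fold (log2 fold change 0.71, SE 0.0794, adjusted p = 0.000171). At P1, 293 and 294 CPM stood against 399 and 331 CPM, with no overlap and a log2 fold change of 0.32 (SE 0.0791, adjusted p = 0.038). The P1 call of *Nfix* was lost in 10 alternatives, among them when the P1 libraries were fitted alone (adjusted p = 0.125) and without the first P1 library labelled cKO, which also lowered the log2 fold change to 0.17 (adjusted p = 0.17). At P8, *Nfix* stood at 314 and 316.5 CPM against 313 and 333 CPM. These groups overlapped, and the 95% interval of the log2 fold change ran from -0.144 to 0.214 (0.03, SE 0.079, adjusted p = 0.782). The genotype effect on *Nfix* was lower at P8 than at P6 by 0.68 (log2, SE 0.112, adjusted p = 0.00236), and larger at P6 than at P1 by 0.40 (SE 0.112, adjusted p = 0.0423, lost in 11 alternatives with an adjusted p of up to 0.122).

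*Nfia*, the NFI gene that comes on first in the gliogenic progenitors, was called at no time point in the edgeR fit of all 12 libraries, but it was called lower in some alternatives. It measured 80.8 and 86 CPM in the label WT and 77.9 and 50.2 CPM in the label cKO at P1, where the lower cKO library set most of the distance (log2 fold change -0.38, SE 0.173, adjusted p = 0.245). Without the first P1 library labelled cKO, the one nearer to the label WT, the log2 fold change of *Nfia* was -0.73 (adjusted p = 0.00961). At P6, *Nfia* measured 54.2 and 62.4 CPM against 60.6 and 70.5 CPM, which overlap (0.17, adjusted p = 0.542). At P8, 70.8 and 71.8 CPM stood against 51.4 and 53.0 CPM. The P8 groups did not overlap and both were narrow, yet the log2 fold change of -0.45 (SE 0.173, 95% interval -0.841 to -0.0582) had an adjusted p of 0.0756 in the edgeR fit of all 12 libraries. This P8 difference of *Nfia* was called lower in 4 of 17 alternatives: in DESeq2 (-0.47, adjusted p = 0.0196), with the P8 libraries alone (-0.47, adjusted p = 0.00253), and without the first or the second P1 library labelled cKO (adjusted p = 0.00691 and 0.00677).

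*Nfic*, the most widely expressed NFI gene, was not called in that fit either. Its levels at P1 were 180 and 183 CPM in the label WT and 205 and 205 CPM in the label cKO (log2 fold change 0.17, SE 0.13, adjusted p = 0.514). At P6 they were 185.5 and 172 CPM against 123 and 176 CPM, so that 1 of the 2 libraries labelled cKO lay within the range of the label WT and the other below it (-0.25, adjusted p = 0.198). Without the second P6 library labelled cKO the log2 fold change of *Nfic* was -0.54 (adjusted p = 0.000283), and over all alternatives it lay between -0.54 and -0.02. At P8, 215 and 212 CPM stood against 183 and 179.7 CPM, with both libraries labelled cKO lower (log2 fold change -0.24, SE 0.13, 95% interval -0.529 to 0.059, adjusted p = 0.204). With the P8 libraries alone *Nfic* was called lower (-0.25, adjusted p = 0.00413), as it was without the first or the second P6 library labelled cKO (adjusted p = 0.00346 and 0.00362). Leaving out either of these P6 libraries also brought its P1 difference past the threshold (0.17, adjusted p = 0.0431 and 0.0442).

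Seen as a family, the 4 NFI genes together came to 677 and 669.6 CPM in the P6 label WT and to 928 and 965 CPM in the P6 label cKO, the highest sums of the 12 libraries. *Nfix* made up 44.7% to 50.6% of the summed NFI RPKM in the libraries outside the P6 label cKO, and 62.2% and 54.7% in that group. *Nfic* was at its lowest share there, with 17.2% and 23.7% against 33.9% and 32.2% in the P6 label WT. *Nfib* accounted for 11.8% and 12.5% of the family in the P6 label WT and for 15.4% and 15.9% in the P6 label cKO. *Nfia* was the smallest part throughout, with a mean of 8.6% ± 0.319 (SD, n = 2) in the P1 label WT and 5.32% ± 0.0317 (SD, n = 2) in the P8 label cKO. Shares of a whole move together by construction, and no test was made on them.

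**Figure D3:**
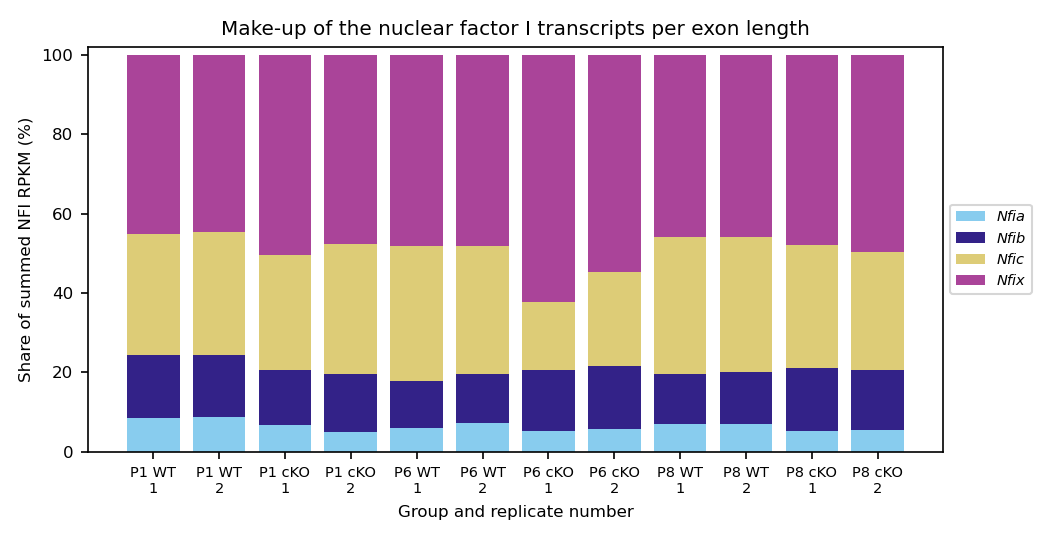
Share of each NFI gene in the summed RPKM of the 4 genes, in percent, with 1 stacked bar for each of the 12 libraries. The share of *Nfix* is largest and that of *Nfic* smallest in the P6 label cKO libraries.

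*Zbtb20* had the largest difference of the 7 genes at P6 and also the widest spread between the 2 libraries of a group, with a biological coefficient of variation of 0.182. It stood at 241 and 366.5 CPM in the P6 label WT and at 551 and 766 CPM in the P6 label cKO. The groups were apart, with a 2.17-fold higher level in the label cKO (log2 fold change 1.12, SE 0.257, adjusted p = 0.0113), but the call was lost without the first library labelled WT (adjusted p = 0.0755) or the second labelled cKO (adjusted p = 0.0756). At P1, *Zbtb20* levels of 402 and 672 CPM stood against 740.1 and 709 CPM (log2 fold change 0.43, SE 0.254, adjusted p = 0.384), and at P8 294.5 and 314 CPM against 446 and 432 CPM. Both libraries labelled cKO were above both labelled WT at each time point, but in the edgeR fit of all 12 libraries only the P6 difference was called (P8 log2 fold change 0.53, SE 0.255, 95% interval -0.0488 to 1.11, adjusted p = 0.149). With the P8 libraries alone *Zbtb20* was called higher at P8 (0.51, adjusted p = 0.00125), and at P1 its log2 fold change lay between 0.11 and 0.85 when single P1 libraries labelled WT were left out. The change of this effect from P1 to P6 (0.68, SE 0.359, adjusted p = 0.266) and from P6 to P8 (-0.59, SE 0.359, adjusted p = 0.301) was not called.

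*Rorb*, at low counts, was likewise higher in both libraries labelled cKO than in both labelled WT at all 3 time points. It measured 7.24 and 7.61 CPM against 10.6 and 7.92 CPM at P1 (log2 fold change 0.32, SE 0.189, adjusted p = 0.396). At P6 it measured 7.18 and 7.34 CPM against 10.1 and 12.9 CPM, 1.59-fold higher in the label cKO (0.67, SE 0.189, adjusted p = 0.0295). The P6 call of *Rorb* was lost without either library labelled WT (adjusted p = 0.115 and 0.104) or without the second labelled cKO, where the log2 fold change was 0.48 (adjusted p = 0.172). At P8, 3.48 and 3.19 CPM stood against 7.13 and 5.37 CPM. Here *Rorb* was 1.88-fold higher in the label cKO (log2 fold change 0.91, SE 0.194, adjusted p = 0.00564), its lowest group being the P8 label WT. The change of the effect between time points was not called (P8 against P1, 0.59, SE 0.27, adjusted p = 0.151).

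*Stat3* was the only gene of the 7 called lower between the labels in the edgeR fit of all 12 libraries, while *Nfia* and *Nfic* at P8 were called lower in the alternatives given above. In the P6 libraries it stood at 245 and 239.8 CPM in the label WT and at 184 and 201 CPM in the label cKO. The libraries labelled cKO were the lowest *Stat3* values of all 12, 1.26-fold below the label WT (log2 fold change -0.34, SE 0.0614, adjusted p = 0.00328). At P1 the values of *Stat3* were 215 and 211 CPM against 232 and 215.5 CPM, and at P8 231 and 251 CPM against 229 and 217 CPM. Neither difference was called (P1 0.07, SE 0.0613, adjusted p = 0.574, and P8 -0.11, SE 0.0613, adjusted p = 0.205). The genotype effect on *Stat3* was lower at P6 than at P1 by 0.41 (log2, SE 0.0867, adjusted p = 0.012), and its return at P8 was not called (0.23, SE 0.0867, adjusted p = 0.101).

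**Figure D4:**
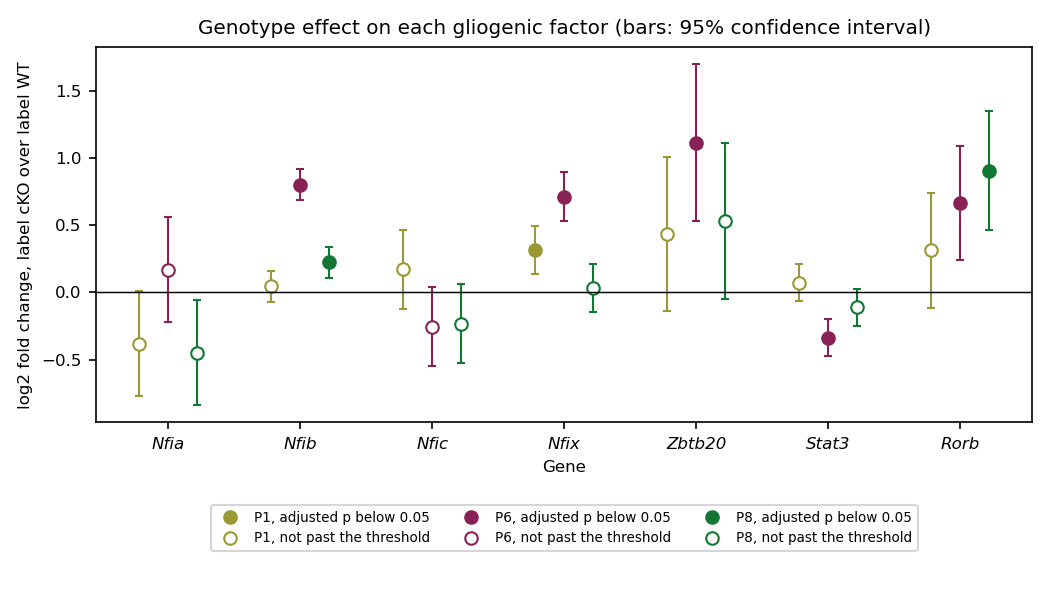
log2 fold change of the label cKO over the label WT for the 7 genes at P1, P6 and P8, with 95% confidence intervals as bars and filled points for an adjusted p below 0.05. At P6, 4 genes are called above 0 and *Stat3* below 0.

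Of the changes in genotype effect between time points, 3 of the 7 genes were called for P6 against P1 (*Nfib* and *Nfix* upwards, *Stat3* downwards), where 15.3% of all genes were, and 2 for P8 against P6 (*Nfib* and *Nfix* downwards), where 21.5% were. For P8 against P1, edgeR called 0 of them, against 25.7% of all genes, and so did DESeq2 on all libraries. *Nfib* and *Nfix* were the only ones with an unadjusted p below 0.05 in the edgeR fit there (0.0335 and 0.0334, adjusted p = 0.103 for both). Other fits called more changes. The genotype effect on *Nfia* fell between P6 and P8 (-0.62, adjusted p = 0.109 in edgeR). DESeq2 and the fit of only the compared libraries called this fall. The latter fit also called the fall of the *Nfic* effect between P1 and P8 (-0.41, adjusted p = 0.145 in edgeR). Over all alternatives these changes ran from -0.7245 to -0.5065 (*Nfia*) and from -0.4292 to -0.3944 (*Nfic*). The P6 libraries are shared by the first 2 of these contrasts.

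The P6 difference stood beside differences in the levels of cell type markers. Of the 9 fibroblast and meningeal markers, 8 were called lower in the label cKO at P6 and 8 at P8, while 8 were called higher at P1. *Col1a1* and *Col3a1*, collagen genes of fibroblasts, had log2 fold changes of -0.82 (adjusted p = 1.53e-06) and -5.63 (adjusted p = 7.47e-10) at P6, and *Lum*, another fibroblast gene, was at 0 in both P6 libraries labelled cKO. Of the 5 neural stem or progenitor markers, 3 were called higher at P6, with *Nes*, the intermediate filament gene of progenitors, at 1.23 (adjusted p = 7.35e-08). At P1, 1 of these markers was called higher, and at P8 3 were called higher and 1 lower. Their median log2 fold change was 0.765 at P6 and 1.35 at P8. Astrocyte markers were called lower for 2 and higher for 1 of 8 at P6, and lower for 6 and higher for 1 at P8. The 3 neuron markers in the file, of 8 listed, summed to 134 to 135 CPM for the label WT and 128 to 131 CPM for the label cKO at P1. They summed to 116 to 125 and 232 to 249 CPM at P6, and to 65.2 to 68.5 and 176 to 178 CPM at P8. Of these 3, 1 was called higher at P1, 2 at P6 and 3 at P8. Whether *Nfib*, *Nfix*, *Zbtb20*, *Rorb* and *Stat3* moved with these cell types was not tested.

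Within the label WT, *Nfia*, *Nfib*, *Zbtb20* and *Rorb* had their highest mean levels at P1, with *Rorb* nearly level at P1 and P6 (7.424 and 7.262 CPM). From P1 to P6, 3 of the 7 genes fell and 1 rose, where 39.9% of all genes were called. *Nfib* fell from 209.5 ± 1.877 to 148.1 ± 3.618 CPM (SD, n = 2; log2 fold change -0.50, adjusted p = 4.59e-05), with no overlap. *Zbtb20* fell by 0.82 on the log2 scale (adjusted p = 0.0298), a call that was lost without the second P1 library (-0.40, adjusted p = 0.247) or the first P6 library (-0.55, adjusted p = 0.178), and *Nfia* fell by 0.52 (adjusted p = 0.0401, up to 0.189 under the alternatives). *Stat3* rose by 0.19 (adjusted p = 0.0364, up to 0.139 under the alternatives). From P6 to P8, where 35.3% of all genes were called, *Nfib* rose by 0.28 (adjusted p = 0.00219) and *Rorb* dropped from 7.262 ± 0.1163 to 3.334 ± 0.2088 CPM (SD, n = 2; log2 fold change -1.12, adjusted p = 0.00181). Between P1 and P8, 4 of the 7 genes were called against 47.0% of all genes. *Rorb* fell by 1.16 (adjusted p = 0.000963), *Nfib* by 0.22 (adjusted p = 0.0058, and 0.0514 without the first P8 library) and *Zbtb20* by 0.82 (adjusted p = 0.0259, and -0.40 with adjusted p = 0.227 without the second P1 library), and *Stat3* rose by 0.18 (adjusted p = 0.0402, up to 0.243 under the alternatives). *Nfic* and *Nfix* were called at no step of the label WT in the fit of all 12 libraries. With only the compared libraries both were called higher from P1 to P8 (0.26 and 0.13, adjusted p = 0.00399 and 0.0236).

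In the label cKO, the P6 libraries formed a peak for *Nfib* and *Nfix* and a trough for *Stat3*. From P1 to P6, *Nfib* rose by 0.25 (adjusted p = 0.0034) and *Nfix* by 0.37 (adjusted p = 0.00494), and *Stat3* fell by 0.22 (adjusted p = 0.0186) and *Nfic* by 0.45 (adjusted p = 0.0217), so that 4 of the 7 genes were called against 38.5% of all genes. The calls of *Nfic* and *Stat3* at this step were lost in some alternatives (adjusted p up to 0.096 and 0.119). From P6 to P8 the direction turned, with *Nfib* falling by 0.30 (adjusted p = 0.00126), *Nfix* by 0.55 (adjusted p = 0.00044) and *Rorb* by 0.88 (adjusted p = 0.00492), and *Stat3* rising by 0.22 (adjusted p = 0.0206, up to 0.126 under the alternatives). That is 4 of the 7 genes against 39.1% of all genes. Between P1 and P8, edgeR called *Rorb* alone (log2 fold change -0.56, adjusted p = 0.0453), against 35.6% of all genes. This call was lost in 10 of 17 alternatives (adjusted p up to 0.274), while *Zbtb20* (-0.72, adjusted p = 0.0539) came to be called in 7 of 17, among them DESeq2 (adjusted p = 0.0446). The steps of a label share their libraries with each other and with the comparisons of the labels.

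The genes of the pathway that leads to STAT3 were taken from lists chosen with earlier results of these data known. Counts in these lists are to be read against the 9.48% (P1), 25.7% (P6) and 34.4% (P8) of all genes that edgeR called. Of 7 ligands that signal through gp130, edgeR called 3 at P1, 4 at P6 and 5 at P8, all higher in the label cKO. DESeq2 called 5, 4 and 6 of them, counted in either direction. At P8, *Ctf1* and *Il11* had lower means in the label cKO. They stood at 5.421 and 1.253 CPM in the label WT and at 2.666 and 0.7637 CPM in the label cKO. At P1 the mean of *Ctf1* was also lower in the label cKO (4.368 CPM in the label WT against 1.591 CPM). That of *Il11* was higher there (0.7469 against 1.261 CPM). The median log2 fold change of the ligands was 0.559, 0.795 and 0.768. *Lif*, the leukaemia inhibitory factor used to drive astrocyte formation in culture, stood at 22.8 and 19.9 CPM against 52.6 and 53.1 CPM at P1, at 64.7 and 61.9 against 246 and 174 CPM at P6, and at 10.6 and 9.32 against 21.1 and 21.2 CPM at P8. Its log2 fold changes were 1.31, 1.73 and 1.08 (adjusted p = 0.000528, 2.96e-05 and 0.000388), with no overlap at any time point. *Cntf*, the ciliary neurotrophic factor, rose by less (0.36, 0.80 and 0.74, adjusted p = 0.0445, 0.000254 and 0.000297). *Il6* was low in level, at 1.15 and 0.891 CPM against 4.95 and 4.95 CPM at P6 (2.28, adjusted p = 2.4e-05), and was also called at P1 (1.23, adjusted p = 0.0022). It was among the 5 ligands called higher at P8 as well, at 2.37 and 2.26 CPM against 9.22 and 10.85 CPM. *Clcf1*, another cytokine of this family, was called at P6 (1.11, adjusted p = 0.0121) and at P8 (0.77, adjusted p = 0.0499), and *Osm* at P8 (1.64, adjusted p = 4.03e-05).

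Between these ligands and STAT3 stand receptors and kinases. Of 9 such genes, edgeR called 0 at P1 (2 at an unadjusted p below 0.05, and 0 by DESeq2), 5 were called lower at P6, and 5 were lower and 2 higher at P8, with medians of -0.0302, -0.288 and -0.357. *Il6st*, which encodes the shared receptor gp130, stood at 516 and 484 CPM in the P6 label WT and at 251 and 273 CPM in the P6 label cKO. Both libraries labelled cKO were far below both labelled WT (log2 fold change -0.93, SE 0.0498, adjusted p = 1.43e-06), and *Il6st* was lower at P8 as well (-0.77, adjusted p = 2.93e-06). *Osmr*, the oncostatin M receptor, was 143 and 141.5 CPM against 53.0 and 61.7 CPM at P6 (-1.31, adjusted p = 8.68e-07), and lower by less at P8 (-0.23, adjusted p = 0.0201). *Jak2* was lower at P6 and P8 (-0.45 and -0.36, adjusted p = 0.000165 and 0.000445), while *Jak1* was lower at P6 (-0.19, adjusted p = 0.00944) and higher at P8 (0.19, adjusted p = 0.00631). At P6, *Stat3* and 5 of these genes thus stood lower in the same libraries in which *Lif*, *Clcf1*, *Cntf* and *Il6* stood higher.

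Of 9 inhibitors of the pathway, 1 was higher and 1 lower at P1, 2 higher and 5 lower at P6, and 1 higher and 4 lower at P8, with medians of 0.111, -0.205 and -0.307. *Socs3*, the feedback inhibitor that STAT3 itself induces, measured 46.2 and 51.3 CPM against 64.1 and 55.9 CPM at P6 (log2 fold change 0.30, adjusted p = 0.0221). The phosphatase gene *Ptpn6* was lower at P1 and P6 (-0.47 and -0.42, adjusted p = 0.000628 and 0.000407) and higher at P8 (0.97, adjusted p = 1.23e-06), and it is a gene that microglia express. Of 9 identifiers of microglia markers, 6 were called lower at P1, 3 higher and 3 lower at P6, and 6 higher and 1 lower at P8. *Itgam* is counted under 2 of these identifiers, which went opposite ways at P6. Their means were 87.02 CPM in the label WT against 269.3 CPM in the label cKO, and 127.9 against 0.007779 CPM. The part of microglia in the values of *Ptpn6* was not tested. *Socs2* was higher at P1 (0.74, adjusted p = 0.0163) and lower at P6 and P8 (-1.41 and -1.16, adjusted p = 0.000141 and 0.00029). *Ptpn11*, which encodes the phosphatase SHP2, was higher at P6 (0.26, adjusted p = 0.00138) and *Pias1* lower (-0.20, adjusted p = 0.02). *Ptpn2* was lower at P6 and P8 (-0.31 and -0.55, adjusted p = 0.0201 and 0.000565) and *Pias3* at P8 (-0.45, adjusted p = 0.0316). Among the 6 other STAT genes, edgeR called 0 at P1 (1 at an unadjusted p below 0.05, and 0 by DESeq2) and 0 at P6 (likewise 1 and 0), and at P8 *Stat6* was higher (0.41, adjusted p = 0.00017) and *Stat5a* lower (-0.56, adjusted p = 0.0165). Of the 4 other ROR and REV-ERB genes, edgeR called *Nr1d1* alone, higher at P1 (0.56, adjusted p = 0.0122) and P8 (0.32, adjusted p = 0.0499), and 0 at P6 (1 at an unadjusted p below 0.05). DESeq2 called 2, 1 and 1 of these 4 genes at P1, P6 and P8.

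**Figure D5:**
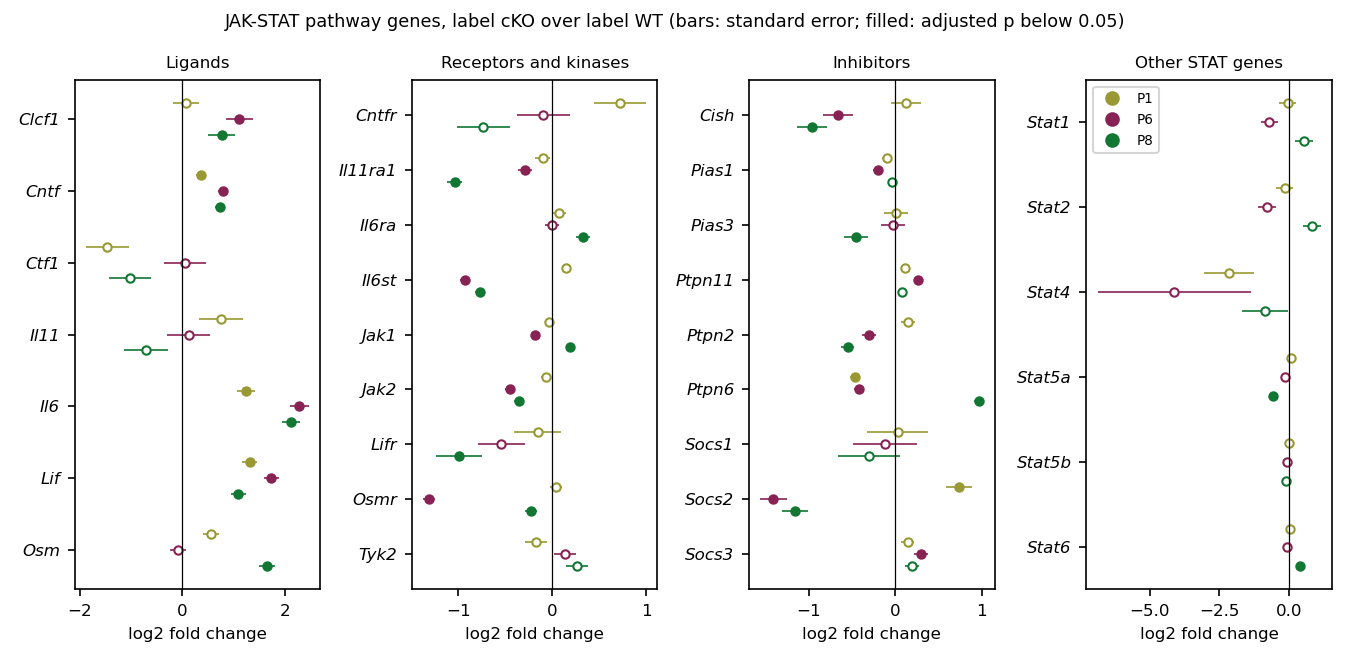
log2 fold change of the label cKO over the label WT for genes of the gp130-JAK-STAT pathway at P1, P6 and P8 (bars: standard errors, filled points: adjusted p below 0.05). *Lif*, *Cntf* and *Il6* are above 0 at each time point, and *Il6st* and *Osmr* are below 0 at P6 and P8.

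Of 20 genes listed as targets of NFI, STAT3 or ZBTB20 or as products of astrocyte maturation, 19 were measured. At P1, 5 were higher and 3 lower in the label cKO, at P6 6 were higher and 4 lower, and at P8 4 were higher and 10 lower, with medians of 0.000634, 0.0961 and -0.325. *Gfap* was higher at P1 (390.4 and 402 against 578 and 559 CPM, log2 fold change 0.52, adjusted p = 0.000491) and lower at P8 (372 and 384.5 against 184 and 176 CPM, -1.07, adjusted p = 9.68e-07). The water channel gene *Aqp4* was lower at P1, P6 and P8 (-0.47, -0.33 and -2.01, adjusted p = 0.00326, 0.0083 and 7.87e-08), and *Glul*, which encodes glutamine synthetase, was lower at P6 (-0.43, adjusted p = 0.000247). The P8 levels of *Glul* were also lower in the label cKO, at 344 and 352.8 CPM in the label WT against 268.8 and 287.3 CPM. *Vim*, an intermediate filament gene of immature astrocytes and of fibroblasts, was higher at each time point (0.18, 0.66 and 0.95, adjusted p = 0.0376, 7.87e-06 and 4.46e-07), as was the surface receptor gene *Cd44* (0.35, 0.26 and 0.86, adjusted p = 0.0237, 0.0408 and 3.33e-05). Astrocyte marker sums were lower in the label cKO at P8 by the values given above. All 8 astrocyte markers also belong to this list, so the sums and the list counts are not separate observations.

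Of 20 other transcription factors of gliogenesis, 18 were measured. The counts were 2 higher and 1 lower at P1, 8 higher and 1 lower at P6, and 9 higher and 3 lower at P8, with medians of 0.0466, 0.239 and 0.415. *Sox2*, the factor of neural progenitors, stood at 64.2 and 68.5 CPM in the P6 label WT and at 124.5 and 117 CPM in the P6 label cKO (log2 fold change 0.86, adjusted p = 5.9e-05) and was also higher at P8 (1.35, adjusted p = 2.12e-06). It is also counted among the neural stem or progenitor markers above. *Glis3* was higher at all 3 time points (0.82, 0.63 and 0.94, adjusted p = 2.41e-05, 3.91e-05 and 1.94e-06). *Etv5*, a target and effector of FGF signalling, was higher at P6 and P8 (0.59 and 1.19, adjusted p = 1.67e-05 and 1.2e-07), and *Sox8*, a SOXE factor of glia, at P1, P6 and P8 (0.43, 1.40 and 1.71, adjusted p = 0.0198, 6.75e-06 and 1.47e-06). Among the ID genes, which hold back bHLH factors, *Id4* was lower at P1 and P8 (-0.41 and -0.53, adjusted p = 0.00916 and 0.000522), *Id1* higher at P6 (0.63, adjusted p = 0.000626) and *Id3* lower at P8 (-0.66, adjusted p = 2.95e-05).

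The genes whose log2 CPM ran most like that of each factor over the 12 libraries were taken from 12162 tested genes with a mean of at least 5 CPM. These correlations are a description over libraries that are grouped by genotype label and time point and also differ in cell type markers. *Rorb* ran most like *Ncald* (r = 0.964), which encodes the calcium sensor neurocalcin delta, and *Cpne8* (r = 0.961). *Ncald* had a mean of 99.6 ± 0.471 CPM in the P6 label cKO and 4.64 ± 0.0225 CPM in the P8 label WT (SD, n = 2), the groups in which *Rorb* was highest and lowest as well. *Nfix* ran most like *Slc14a1* (r = 0.948), a urea transporter gene known from astrocytes, with 27.3 ± 0.926 CPM in the P6 label cKO and 6.73 ± 1.3 to 11.2 ± 0.508 CPM elsewhere (SD, n = 2), and like *Mllt11* (r = 0.932). *Nfib* was closest to *Rab6b* (r = 0.942) and A830082K12Rik (r = 0.941). *Zbtb20* was closest to *Mtmr7* (r = 0.925) and to *P2rx7* (r = 0.925), a gene for an ATP-gated channel that microglia also express. *Stat3* went with *Ptges* (r = 0.925), the prostaglandin E synthase gene, and with *Il1rl2* (r = 0.921), a receptor gene of the interleukin 1 family. *Ptges* measured 59.3 ± 3.71 CPM in the P6 label WT and 1.96 ± 0.465 CPM in the P6 label cKO (SD, n = 2). *Nfic* was closest to Gm38372 (r = 0.92) and *Ibtk* (r = 0.913), and *Nfia* to *Cep76* (r = 0.932) and, less closely, *Haspin* (r = 0.838).

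Among the 7 genes themselves, *Nfib* ran with *Zbtb20* (r = 0.797, Spearman's rho = 0.811) and *Nfix* (r = 0.763, rho = 0.741) and opposite to *Stat3* (r = -0.786, rho = -0.685) over the 12 libraries. *Zbtb20* and *Rorb* ran together (r = 0.705, rho = 0.811), and *Nfic* and *Stat3* did so by r (0.716) more than by rank (rho = 0.545). *Nfia* ran with none of them, its r lying between -0.0494 and 0.187.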

How the data were processed

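RNA-seq counts of 12 libraries of primary astrocytes were analysed, in 6 groups of 2 named by time point and genotype label. The authors deposited whole-number counts of reads per gene, not normalized, for 18903 genes. Per the submitters' processing notes, reads were mapped to mm10 with HISAT2. The sources used here do not give the counting program, its annotation or its strand setting, so that reads of overlapping genes could have gone to either gene. The study's methods name ballgown and DESeq2 with cut-offs of 0.05 on p and 1.5 on fold change, without a stated design.

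Counts were fitted in edgeR 4.0.16 (R 4.3.3, limma 3.58.1) with TMM factors, edgeR's filter on low counts (17938 genes kept) and 1 mean for each group. The labels were contrasted as cKO minus WT at every age, together with the steps from one age to another under each label and the differences of genotype effects. Tests were two-sided quasi-likelihood tests, Benjamini-Hochberg adjustment ran over all genes tested, and a gene was called at an adjusted p below 0.05. A step or contrast is given on the log2 scale. RPKM were computed from CPM and the exon union of GENCODE vM21. The labels call the 2 libraries of a group biological replicates without saying whether these were separate animals or cultures, and p-values measure the spread between these libraries. With 2 against 2 libraries an exact permutation test cannot go below 0.333, so none was used for single genes. Total counts of 54413504 to 89183250 limit the precision of low genes such as *Rorb* most. Replicates differed by more than counting noise (chi-square per degree of freedom 30.5 to 47.1).

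All 7 factors were named, with *Zmynd8*, up to 4 called members with the highest mean CPM in each pathway list, the 2 genes most like each factor by r, and markers on which a result turns. *Il6* is given with its test at P1 and P6 and by its level at P8, and *Glul* with its test at P6 and by its level at P8. Members of a list are named at the time points at which this rule names them and otherwise where they are called. Of the genes in the list of receptors and kinases, 1 is not reported here and was left out of its counts and medians. The members and lists were chosen with earlier results of these data known. The alternatives were DESeq2 1.42.0 and its size factors in edgeR, all genes with a count, a block for the replicate number, only the compared libraries, the study's cut-off, a fold change added to the adjusted p, and leaving out single libraries. The lone library of a group is then taken to vary as other groups do. RPKM with the length of the longest coding transcript was added after seeing the data. The fits were tested on data simulated for the genotype effect at P8. There 26% of 50 genes changed 1.5-fold and 80% of 50 genes changed 2-fold were recovered, with 6 false calls. A difference near 1.5-fold that is not called can thus have been missed.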

Additional observations from a re-analysis of the deposited data

Results flagged for a closer look

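Of the differences in genotype effect between time points, 5 passed the test of the difference itself in edgeR, an interaction term. The effect of the label cKO on *Nfib* was larger at P6 than at P1 by 0.7558 on the log2 scale (adjusted p = 0.000105) and smaller at P8 than at P6, with a difference of -0.5773 (adjusted p = 0.000426). For *Nfix* the differences were 0.3985 (P6 against P1, adjusted p = 0.0423) and -0.6788 (P8 against P6, adjusted p = 0.00236). *Stat3* had a difference of -0.4092 (P6 against P1, adjusted p = 0.012). In every refit with other libraries, normalization, filter, block or tool, the calls of *Nfib*, of *Stat3* and of *Nfix* for P8 against P6 stayed past an adjusted p of 0.05 (at most 0.00327, 0.0448 and 0.0126). With a fold change of at least 1.5 added to the adjusted p, *Nfib* for P6 against P1 and *Nfix* for P8 against P6 remained called, and the other 3 did not. That of *Nfix* for P6 against P1 was lost in 11 alternatives (adjusted p up to 0.122). The P6 libraries enter all 5 of these contrasts.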

How the results depend on the processing

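Counts of called genes among the 7 are given in the order P1, P6, P8 for the labels, then P6 against P1, P8 against P6 and P8 against P1 for steps and for changes of genotype effect. The replicate number did not pair the libraries (correlation of same-numbered deviations over 15 pairs of groups -0.0627 to 0.0442). A replicate block in the model left the step of the label WT from P1 to P6 with 2 calls in place of 4, and no other count moved by over 1.5 times. In the label cKO from P1 to P8 the block changed the called gene from *Rorb* (adjusted p = 0.0579) to *Zbtb20* (adjusted p = 0.0236), at 1 call in both fits. Under the study's cut-off the counts were 0 at P1, 1 at P8, 1, 1 and 2 at the steps of the label WT, 0 and 2 at the first steps of the label cKO, and 1 for the change from P1 to P6. With an adjusted p and the fold change the counts were 0 at P1, 1 at P8, 1, 1 and 2 in the label WT, 0, 1 and 0 in the label cKO, and 1 and 1 for the first changes of genotype effect. DESeq2 gave 2 for the step of the label cKO from P1 to P8. With only the compared libraries, the counts were 0 at P1, 5 at P8, 7 for the label WT from P1 to P8, 2 and 2 for the label cKO from P1 to P6 and to P8, and 1 for the change from P1 to P8.

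Without single libraries, the counts lay at 0 to 2 for P1, 3 to 5 for P6 and 1 to 3 for P8. They lay at 1 to 4, 2 to 3 and 2 to 5 for the label WT, at 3 to 4, 3 to 5 and 0 to 3 for the label cKO, and at 2 to 4, 2 to 3 and 0 to 1 for the changes of genotype effect.

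All values that turned direction belonged to differences that were not called, and none of the called ones turned. On the log2 scale, leaving out single libraries moved *Nfia* over -0.351 to 0.284 (change of genotype effect, P8 against P1), -0.253 to 0.382 (label cKO, P6 against P1) and -0.578 to 0.0561 (P8 against P1), *Nfib* over -0.0839 to 0.00104 (label cKO, P8 against P1), *Nfic* over -0.218 to 0.303 (change, P8 against P6) and -0.0836 to 0.0293 (label WT, P6 against P1) and *Nfix* over -0.00964 to 0.0788 (P8). It moved *Rorb* over -0.0675 to 0.00598 (label WT, P6 against P1), *Stat3* over -0.061 to 0.0479 (label cKO, P8 against P1) and -0.0706 to 0.0476 (label WT, P8 against P6), and *Zbtb20* over -0.324 to 0.421 (change, P8 against P1), -0.395 to 0.0799 (label cKO, P6 against P1) and -0.268 to 0.333 (label WT, P8 against P6). The change of *Nfic* for P8 against P6 was -0.0105 with DESeq2 size factors, -0.0114 in DESeq2 and -0.00619 with only the compared libraries. The step of *Stat3* in the label WT from P6 to P8 was 0.00468 with DESeq2 size factors and 0.00522 in DESeq2, and that of *Zbtb20* was -0.00027 with only the compared libraries. The cause of these changes was not tested. Of the values for single genes, 1272 kept direction and side of the threshold, 53 came to pass it and 75 no longer passed it. A fit with 2 libraries a group limits what can be called for *Nfia*, *Zbtb20* and *Rorb*, whose replicates differed most.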
